A study of Mus musculus with 9 samples.

Results

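The protocadherins of mouse ES cells and of the motor neuron cultures made from them were followed on 9 Affymetrix arrays. The family was taken as every probe set whose gene symbol begins with Pcdh, so that members were chosen by gene symbol. The family itself was taken up with earlier results of these data known. It held 68 of the 45101 probe sets on the array. Of these, 62 carried 1 gene symbol and named 35 of the 18193 genes named in this way over the whole array: 28 probe sets for 22 Pcdhb genes, 1 for the Pcdhg gene Pcdhgc4 and 33 for 12 non-clustered genes. The other 6 carried several symbols each, all of them Pcdha genes, and are described apart because none of them can be read as 1 gene.

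The arrays fell into 3 groups of 3. All 9 came from Ainv15, a mouse ES line built for doxycycline-controlled expression of an inserted gene, and every group, the controls included, carried an inducible V5-tagged Cdx2 construct. The ES group was collected on day 0, untreated, from cells kept with LIF over fibroblasts that mitomycin C had stopped from dividing. The motor neuron group was collected on day 5 from embryoid bodies patterned from day 2 with hedgehog agonist at 0.5 µM and all-trans retinoic acid at 1 µM. The third group, called Cdx2 and FGF here, was patterned in the same way on day 2, was given doxycycline at 2 µg/ml from day 3 for 6 to 8 hours to induce Cdx2, received basic FGF at 100 ng/ml and was also collected on day 5. Doxycycline, Cdx2 and FGF came together in these cultures, so their effects cannot be told apart. Per the labels, FGF was at some point combined with reduced retinoic acid and hedgehog agonist following a wash. Which cultures had this step is not said, so a difference in these doses between the day 5 groups cannot be told apart from the rest. The labels do not say whether the 3 arrays of a group came from separate cultures. The p-values set each group difference only against the spread among arrays of a group, and that spread may be technical.

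Protocadherins are the largest group within the cadherin superfamily of calcium-dependent adhesion proteins and are best known from the nervous system. The clustered genes lie in tandem arrays named alpha, beta and gamma. Each alpha or gamma variable exon has its own promoter and is spliced to constant exons shared across its cluster, whereas each beta gene is a separate gene with 1 coding exon. Neurons use different sets of these promoters, a choice that involves the DNA-looping protein CTCF with cohesin and DNA methylation, and the resulting isoforms bind like to like and give neighbouring neurites different surface identities. The non-clustered protocadherins are scattered over the genome. The delta-1 genes Pcdh1, Pcdh7, Pcdh9 and Pcdh11x and the delta-2 genes Pcdh8, Pcdh10, Pcdh17, Pcdh18 and Pcdh19 differ in the number of extracellular cadherin repeats and in their cytoplasmic motifs, and several are used in embryonic tissues outside the brain.

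Values are the deposited log2 signals, whose floor lay near 2.17. A probe set was tested if it was over 4 on at least 3 of the 9 arrays. Differences and adjusted p-values are from limma over all 21523 probe sets tested, with Benjamini-Hochberg adjustment, and a call required an adjusted p under 0.05 together with a log2 difference of at least 1 in size. Where an array of the dimmer group was under 4, the fold is given as "at least", with values under 4 raised to 4. Of the 62 Pcdh probe sets with 1 symbol, 18 were tested, for 11 genes. Of these 18, 9 were over 4 only on motor neuron arrays and so could be tested only through the group in which they were high. Pcdhb3 and the Pcdh19 probe sets 1437360_at and 1455145_at were over 4 on fewer than 3 of the other arrays. They too needed motor neuron arrays to pass. Of the 44 not tested, 35 were under 4 on all 9 arrays. The 3 comparisons share arrays and are not independent of one another.

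The induced gene and the differentiation followed the labels. Cdx2 was at 2.17 in ES, 2.17 to 2.24 in the motor neuron group and 8.27 to 8.99 under Cdx2 and FGF. The mean level of 8 pluripotency markers was 12.34 to 12.64 in ES and 3.63 or lower on every day 5 array. All 6 tested motor neuron markers of 8 were called higher in the motor neuron group than in ES, where 25.9% of all tested genes were. Even so, Chat, the acetylcholine-synthesising enzyme of mature motor neurons, stayed under 4 on every array. The ES arrays stood apart in quality controls. Their 18S ribosomal RNA control read 5.86 to 6.60 against 15.32 to 15.51 on the day 5 arrays, the beta-actin 3′ probe set exceeded the 5′ one by 1.87 to 2.30 against -0.10 to -0.01, and correlations between replicates were 0.948 to 0.955 against 0.988 or more. The 3′ minus 5′ difference was 5.59 to 6.86 against -1.74 to -1.39 for Tfrc and 0.63 to 1.05 against 0.51 to 0.65 for Gapdh. What made these controls differ is not known here. Its part in any difference from ES was not tested and cannot be told apart from that between ES and day 5. The comparison of the Cdx2 and FGF group with the motor neuron group is between arrays that were alike in these controls.

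The beta cluster was read in the motor neuron group and little elsewhere. Of the 28 Pcdhb probe sets, 15, 12 and 14 were over 4 on the 3 motor neuron arrays, against 1, 0 and 1 in ES and 1, 3 and 3 under Cdx2 and FGF. The share of all probe sets over 4 was 43.5 to 45% on every array. The median over the 28 Pcdhb probe sets was 4.61, 3.82 and 3.98 in the motor neuron group, 2.17 on each ES array and 2.18 on each Cdx2 and FGF array.

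**Figure D1:**
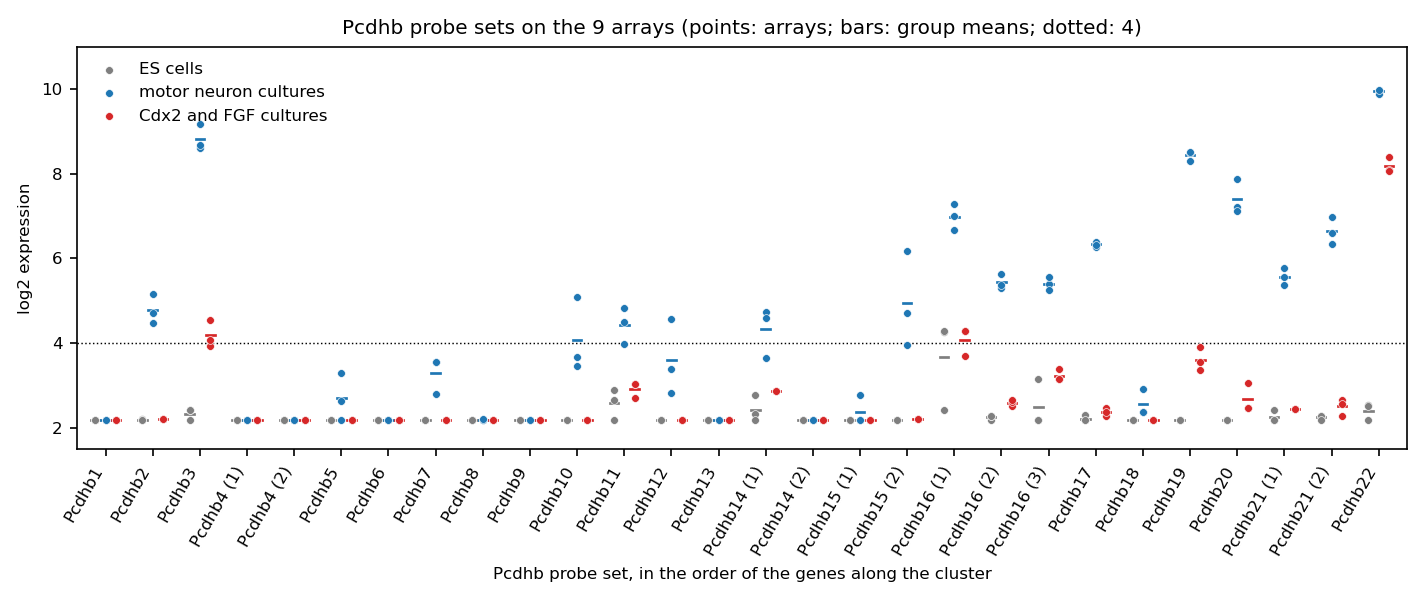
The deposited log2 signal of the Pcdhb probe sets is plotted for each of the 9 arrays, coloured by group, with the line at 4 that a probe set had to pass to count as read. Probe sets follow gene order, and a number in brackets tells probe sets of 1 gene apart. The motor neuron points lie above both other groups in all 11 tested probe sets, and Pcdhb22 alone among them keeps Cdx2 and FGF values over 8.

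Pcdhb22, the last gene of the beta cluster, had the largest difference from ES. Its probe set read 2.17, 2.54 and 2.50 in ES, 9.97, 9.88 and 9.99 in the motor neuron group and 8.08, 8.06 and 8.40 under Cdx2 and FGF. The groups did not overlap, and the Cdx2 and FGF arrays sat nearer to the motor neuron arrays than to ES. The log2 difference between the motor neuron group and ES was 7.54 (SE 0.22, limma adjusted p = 6.25e-09), at least 61.7-fold. Between the Cdx2 and FGF group and the motor neuron group it was -1.77 (SE 0.22, limma adjusted p = 0.000295), a 3.4-fold lower signal. Against ES the Cdx2 and FGF group was still higher by 5.78 (limma adjusted p = 3.01e-08), at least 18.1-fold.

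Pcdhb3 and Pcdhb19 differed from ES nearly as much. Pcdhb3 read 2.41, 2.42 and 2.17 in ES, 9.17, 8.62 and 8.68 in the motor neuron group and 3.94, 4.07 and 4.54 in the Cdx2 and FGF group. It was higher in the motor neuron group than in ES by 6.49 (SE 0.25, limma adjusted p = 3.16e-08), at least 28.3-fold, and different by -4.64 with Cdx2 and FGF (SE 0.25, limma adjusted p = 1.84e-06), at least 24.6-fold. All 3 motor neuron arrays were more than 4 log2 units above the rest. Pcdhb19 was at 2.17 on all 3 ES arrays, at 8.50, 8.31 and 8.52 in the motor neuron group and at 3.36, 3.56 and 3.91 under Cdx2 and FGF. Its differences were 6.28 (SE 0.21, limma adjusted p = 1.42e-08) and -4.83 (SE 0.21, limma adjusted p = 5.44e-07), each at least 21.7-fold. Only the motor neuron arrays read Pcdhb19 over 4.

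Pcdhb20 had the next largest difference, with 2.17 on all ES arrays, 7.87, 7.21 and 7.12 in the motor neuron group and 3.06, 2.47 and 2.47 under Cdx2 and FGF. The differences were 5.23 (SE 0.26, limma adjusted p = 1.55e-07) and -4.73 (SE 0.26, limma adjusted p = 2.15e-06), each at least 10.5-fold. Pcdhb17 read 2.17, 2.30 and 2.17, then 6.40, 6.28 and 6.31, and 2.46, 2.27 and 2.36 in the same order of groups. Here too the motor neuron arrays alone were over 4. Its differences were 4.12 (SE 0.17, limma adjusted p = 4.18e-08) and -3.97 (SE 0.17, limma adjusted p = 4.74e-07), each at least 5.04-fold.

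Pcdhb16 and Pcdhb21 were read by several probe sets, all of which were called in both comparisons. For Pcdhb16, probe set 1441358_at read 4.27, 2.42 and 4.28 in ES, 6.68, 7.01 and 7.28 in the motor neuron group and 3.69, 4.28 and 4.28 with Cdx2 and FGF. The differences were 3.33 (SE 0.48, limma adjusted p = 0.000178), at least 6.99-fold, and -2.91 (SE 0.48, limma adjusted p = 0.00187), at least 6.97-fold. The first of these rested in part on the second ES array, at 2.42, and was 2.71 without it. The other Pcdhb16 probe sets, 1441994_at and 1450216_at, read 5.25 to 5.64 in the motor neuron group and 3.39 or less on the others, with differences from ES of 3.19 and 2.91 and between the day 5 groups of -2.85 and -2.18 (limma adjusted p = 4.07e-06 and 0.000433 for the last pair). For Pcdhb21, probe set 1438106_at read 2.27, 2.27 and 2.17, then 6.59, 6.33 and 6.99, and 2.65, 2.27 and 2.56. Its differences of 4.40 (SE 0.22, limma adjusted p = 1.51e-07) and -4.14 (SE 0.22, limma adjusted p = 1.64e-06) were each at least 6.22-fold. The other Pcdhb21 probe set, 1420422_at, read 5.38, 5.78 and 5.55 in the motor neuron group and 2.44 or less on the other 6, with differences of 3.31 (SE 0.18) and -3.13 (SE 0.18), each at least 2.97-fold.

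Pcdhb2, near the start of the cluster, was read only a little above 4. It was at 4.48, 5.15 and 4.70 in the motor neuron group and 2.20 or less on each of the other 6. Its log2 differences were 2.60 (SE 0.20, limma adjusted p = 2.58e-06) and -2.58 (limma adjusted p = 1.78e-05). With values under 4 raised to 4 these shrank to 0.78 and -0.78, at least 1.71-fold, so neither reached the size threshold.

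In the count over the cluster, all 11 tested Pcdhb probe sets were called higher in the motor neuron group than in ES, where 31.9% of all tested probe sets were. All 11 were called lower with Cdx2 and FGF than in the motor neuron group, where 8.57% of all tested probe sets were. Because 8 of the 11 passed the filter on motor neuron arrays alone, and Pcdhb3 also needed those arrays to pass, these counts are not support for the pattern. Fitted with no filter, which takes in all 28, 17 were higher in the motor neuron group than in ES (15.0% of 45037 probe sets were). With Cdx2 and FGF, 16 were lower than in the motor neuron group (3.68%). Both counts include probe sets too dim to pass the filter, such as that of Pcdhb7, under 4 on every array. The median log2 differences over the 28 were 1.88 and -1.49, against 0.00 in each over all probe sets.

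The 17 untested Pcdhb probe sets split by level. In 7 of them every motor neuron array was above each of the other 6 arrays. These were probe sets of Pcdhb7, Pcdhb10, Pcdhb11, Pcdhb12, Pcdhb14, Pcdhb15 and Pcdhb18. Pcdhb15 read 6.18, 3.96 and 4.70 in the motor neuron group, Pcdhb10 read 5.08, 3.68 and 3.45 and Pcdhb11 read 4.83, 3.97 and 4.50. Pcdhb14 read 4.74, 3.64 and 4.58 there and Pcdhb12 read 2.82, 4.57 and 3.39. Each of these 5 was over 4 on 1 or 2 motor neuron arrays, and Pcdhb7 and Pcdhb18 were at 3.55 or less. Values that low have no order, and the share of all probe sets with the same order of arrays was not counted. The 7 are listed as a description only. A further 8, for Pcdhb1, Pcdhb4, Pcdhb6, Pcdhb8, Pcdhb9, Pcdhb13 and a second probe set of Pcdhb14, were within 0.15 of the floor on all 9 arrays. The remaining probe sets were that of Pcdhb5, at 3.30, 2.64 and 2.17 in the motor neuron group, and a second one of Pcdhb15, which read 2.78 on the second motor neuron array. The beta genes are close copies of one another, so a probe set can also take signal from a relative of the gene it names.

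By gene order in the mouse annotation GRCm38.p6, the tested genes lay mostly at the end of the beta cluster. Of the last 7 genes, Pcdhb16 to Pcdhb22, 6 had a tested probe set, and of the first 15, 2 did. With no filter, 14 of the 22 genes had a probe set called higher in the motor neuron group than in ES, 6 of the last 7 and 8 of the first 15. Among the 14 were Pcdhb7, Pcdhb10, Pcdhb11, Pcdhb12, Pcdhb14 and Pcdhb15, whose probe sets were too dim to pass the filter. A probe set called lower with Cdx2 and FGF was found for 13 genes, 6 of the last 7 and 7 of the first 15. The split was chosen after the values were seen and is given without a test, and levels of different probe sets cannot be set against each other.

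The alpha cluster was read by 6 probe sets that name several Pcdha genes each. The 3 that name all 14 genes were higher in the motor neuron group than in ES and lower with Cdx2 and FGF. Of all tested probe sets, 31.9% were higher in the first comparison and 8.57% lower in the second. The 3 passed the filter on motor neuron arrays alone, so these calls are not support for the pattern. Fitted with no filter, 3 of the 6 were higher (15.0% of all probe sets were) and 3 were lower (3.68%). Probe set 1424341_s_at was at 2.17 in ES, at 9.01, 8.72 and 8.31 in the motor neuron group and at 3.17, 3.44 and 3.33 under Cdx2 and FGF. It was higher in the motor neuron group than in ES by 6.51 (SE 0.23, limma adjusted p = 1.8e-08) and different by -5.36 with Cdx2 and FGF (SE 0.23, limma adjusted p = 4.9e-07), at least 25.6-fold each way. Only the motor neuron arrays were over 4.

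Probe set 1420798_s_at read 2.59, 2.77 and 2.17, then 8.08, 7.61 and 7.35, and 2.93, 2.68 and 2.65. Its differences were 5.17 (SE 0.26, limma adjusted p = 1.47e-07) and -4.93 (SE 0.26, limma adjusted p = 1.54e-06), at least 12.8-fold each. Probe set 1451769_s_at read 5.39, 6.17 and 5.65 in the motor neuron group and 2.40 or less on the other 6, with differences of 3.38 (SE 0.22, limma adjusted p = 8.8e-07) and -3.42 (SE 0.22, limma adjusted p = 5.64e-06), at least 3.33-fold each. Against ES, 1424341_s_at was also higher with Cdx2 and FGF, by 1.15, although all 6 arrays were under 4 and the call was lost with values raised to 4 or with arrays centred on their medians. Which alpha isoforms were present cannot be read from probe sets that name 14 genes. The 3 remaining probe sets, which name 9 Pcdha genes, were not tested. Of these, 1427687_at read 2.63, 2.29 and 3.20 in the motor neuron group and 2.23 or less elsewhere, and the other two were at 2.17 on all 9 arrays. Levels of the gamma cluster could be judged from Pcdhgc4 alone among 22 genes in the annotation, and it stayed between 2.26 and 2.54 on all 9 arrays.

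**Figure D2:**
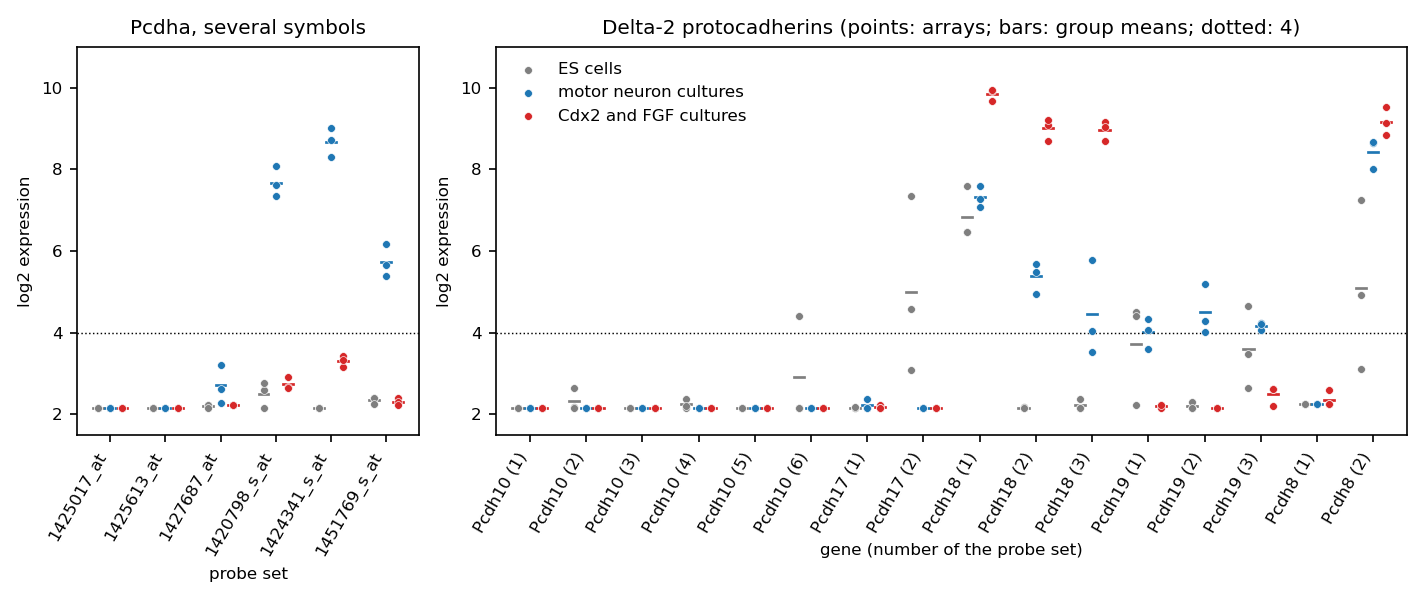
The deposited log2 signal per array is plotted for the Pcdha probe sets that name several genes and for the delta-2 probe sets, coloured by group, with a line at 4. The 3 Pcdha probe sets that name 14 genes are over 4 in the motor neuron group alone, whereas the 3 Pcdh18 probe sets have their highest values, 8.70 to 9.95, under Cdx2 and FGF.

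Among the delta-2 genes, the results turned on Pcdh18, Pcdh19 and Pcdh8. Their promoters, 250 bases up to the transcript start from RefSeq on GRCm38.p6, are shown because these were the delta-2 genes with a tested probe set. Each is written 5′ to 3′ on its gene's strand, the minus strand in all of them, from chr3:49757317-49757566 for Pcdh18, chrX:133688994-133689243 for Pcdh19 and chr14:79771313-79771562 for Pcdh8. Capitals mark CCAAT or its reverse complement ATTGG, and TATAAA.
Pcdh18: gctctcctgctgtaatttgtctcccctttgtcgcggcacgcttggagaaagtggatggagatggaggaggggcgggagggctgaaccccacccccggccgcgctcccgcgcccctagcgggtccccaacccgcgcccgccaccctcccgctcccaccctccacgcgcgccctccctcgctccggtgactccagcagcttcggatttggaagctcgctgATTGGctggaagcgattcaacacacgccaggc
Pcdh19: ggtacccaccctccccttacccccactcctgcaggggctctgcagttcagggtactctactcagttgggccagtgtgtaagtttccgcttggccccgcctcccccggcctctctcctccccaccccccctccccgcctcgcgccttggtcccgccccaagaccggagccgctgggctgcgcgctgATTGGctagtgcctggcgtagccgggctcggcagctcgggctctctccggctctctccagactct
Pcdh8: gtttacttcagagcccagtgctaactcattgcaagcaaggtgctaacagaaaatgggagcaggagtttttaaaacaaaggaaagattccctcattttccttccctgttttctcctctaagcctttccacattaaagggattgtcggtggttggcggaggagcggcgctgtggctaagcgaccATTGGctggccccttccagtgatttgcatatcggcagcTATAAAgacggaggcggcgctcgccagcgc
The promoters of Pcdh18 and Pcdh19 were rich in CpG, with 23 and 16 CpG and 68% and 69.2% GC, against a median of 6 CpG over 32851 promoters. That of Pcdh8 had 11 CpG and 51.2% GC. CCAAT on either strand was present once in each, and in 33.8% of all promoters. TATAAA was present in that of Pcdh8 and in 12.4% of all. TTTATG, a sequence bound by caudal-type factors such as Cdx2, was searched for on both strands, had no match in these windows and occurred in 10.8% of all promoters. CCAAT was noticed after the sequences were seen. For Pcdh18, Pcdh19 and Pcdh8 the search began at a lower position than the printed window, at 49757267 on chr3 for Pcdh18. The matches and the values over all promoters may thus come from windows longer than the 250 bases printed.

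Pcdh18, which is known from mesenchymal and other embryonic tissues, was the protocadherin called higher with Cdx2 and FGF than in the motor neuron group. Probe set 1422890_at read 2.17, 2.19 and 2.17 in ES, 4.96, 5.69 and 5.50 in the motor neuron group and 9.10, 9.22 and 8.70 with Cdx2 and FGF. Probe set 1430427_a_at read 2.39, 2.17 and 2.17, then 3.54, 5.79 and 4.04, and 9.16, 9.03 and 8.70. Probe set 1422889_at read 6.46, 6.46 and 7.59, then 7.07, 7.28 and 7.60, and 9.93, 9.68 and 9.95. In all 3 probe sets every Cdx2 and FGF array was above every other array.

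Between the Cdx2 and FGF group and the motor neuron group the log2 differences were 3.62 (SE 0.26, limma adjusted p = 9.73e-06), 12.3-fold, for 1422890_at and 2.54 (SE 0.32, limma adjusted p = 0.000389), 5.81-fold, for 1422889_at. For 1430427_a_at the difference was 4.51 (SE 0.50, limma adjusted p = 0.000165), at least 20.5-fold. It was 5.18 without the second motor neuron array, which read 5.79 there. The same 3 were the only Pcdh probe sets with 1 symbol called higher in this comparison, in which 10.9% of all tested probe sets were. Against ES the motor neuron group was also higher for 1422890_at, by 3.21 (SE 0.26, limma adjusted p = 3.22e-06), at least 2.61-fold. It was higher for 1430427_a_at by 2.21 (SE 0.50, limma adjusted p = 0.00295), or 1.55 without the second motor neuron array and 0.61 with values under 4 raised to 4. For 1422889_at the groups overlapped and the difference of 0.48 was not called (limma adjusted p = 0.205). The probe sets of Pcdh18 thus disagreed in ES, where 1 was over 6 and the others lay near the floor.

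Pcdh19, an adhesion partner of N-cadherin in the neural tube, was dim throughout. Probe set 1444422_at read 2.17, 2.31 and 2.17 in ES, 4.28, 5.19 and 4.02 in the motor neuron group and 2.17 on all 3 Cdx2 and FGF arrays. Its differences were 2.28 (SE 0.28, limma adjusted p = 6.18e-05) and -2.33 (SE 0.28, limma adjusted p = 0.000283). Raising values under 4 to 4 left 0.50 and -0.50, at least 1.41-fold, under the size threshold. Probe set 1455145_at read 2.66, 4.65 and 3.49, then 4.23, 4.08 and 4.21, and 2.22, 2.62 and 2.62. Probe set 1437360_at read 2.24, 4.51 and 4.41, then 3.61, 4.34 and 4.08, and 2.24, 2.17 and 2.24. In both, every Cdx2 and FGF array was below every motor neuron array, and the ES arrays were spread from 2.24 to 4.65.

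The differences between the day 5 groups were -1.69 for 1455145_at (SE 0.43, limma adjusted p = 0.0165) and -1.79 for 1437360_at (SE 0.54, limma adjusted p = 0.0334). With values under 4 raised to 4 they were -0.17 and -0.14 and no longer called, and neither was called with no filter. The call for 1455145_at was also lost without the first motor neuron array and without the first Cdx2 and FGF array, and that for 1437360_at was lost without any 1 of the 6 day 5 arrays. Neither was called between the motor neuron group and ES (differences 0.57 and 0.29, limma adjusted p = 0.249 and 0.644). Without the second ES array that of 1455145_at was 1.10 and was called, and without the first ES array that of 1437360_at was -0.45.

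Pcdh8, also called paraxial protocadherin, has a known role in the segmenting mesoderm and at synapses. Probe set 1447825_x_at read 7.26, 4.92 and 3.11 in ES, 8.65, 8.67 and 8.01 in the motor neuron group and 9.52, 8.84 and 9.14 with Cdx2 and FGF. The day 5 arrays lay above all ES arrays, which were spread widely. The motor neuron group was higher than ES by 3.35 (SE 0.84, limma adjusted p = 0.00544), at least 8.28-fold. This difference was 2.35 without the third ES array and 4.43 without the first. Between the day 5 groups every Cdx2 and FGF array was above every motor neuron array, but the difference of 0.72 (SE 0.84) was under the size threshold and was not called (limma adjusted p = 0.604, and 0.069 in a fit of only the 6 day 5 arrays). The other Pcdh8 probe set, 1417051_at, read 2.25 on 8 arrays and 2.59 on the third Cdx2 and FGF array, so the gene's probe sets disagreed.

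Pcdh10 and Pcdh17, the other delta-2 genes, both known from axons and synapses, had no tested probe set. Pcdh17 probe set 1453070_at read 4.59, 3.09 and 7.36 in ES and 2.17 on all day 5 arrays. Pcdh10 probe set 1444301_at read 4.41 on the third ES array and 2.17 on every other, and its other 5 probe sets were at 2.64 or less. These signals thus varied among the ES arrays, which also differed from one another in fibroblast markers, whose mean level over 12 genes was 3.95, 7.50 and 6.59 on the same 3 arrays. The part of the fibroblast layer in these values was not tested.

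None of the 9 delta-1 probe sets was tested. Over 4 they had only the second ES array, for the Pcdh7 probe sets 1449249_at, at 4.86, and 1456214_at, at 4.20. A further Pcdh7 probe set, 1427592_at, read 3.16, 3.28 and 2.65 with Cdx2 and FGF and 2.29 to 2.49 elsewhere. Pcdh1 read 2.67, 3.11 and 2.62 with Cdx2 and FGF and 2.17 on the other 6 arrays, and Pcdh9 probe set 1442659_at read 3.22, 3.80 and 2.47 in the motor neuron group. Pcdh11x stayed at 2.21 or less. Of the other non-clustered genes, Pcdh12, known from endothelium, stayed at 2.28 or less, Pcdh15, a part of the tip link of hair cells, at 2.67 or less and Pcdh20 at 2.19 or less. On all these the arrays show only that signals lay near the floor.

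The count over the family took the 18 tested of the 62 probe sets with 1 symbol. Of these, 9 were tested through motor neuron arrays alone. Pcdhb3 and the Pcdh19 probe sets 1437360_at and 1455145_at also needed those arrays to pass. Of the 18, 15 were higher in the motor neuron group than in ES, for 11 genes (31.9% of all tested probe sets were). None was lower: 0 were called and 0 had an unadjusted limma p under 0.05 (27.9% of all were lower). With Cdx2 and FGF, 14 were lower than in the motor neuron group, for 9 genes (8.57%), and 3 were higher (10.9%). The filter thus favoured probe sets high in the motor neuron group. The counts of 15 higher, 0 lower and 14 lower are not support for the pattern. With no filter, and so with dim probe sets taken in, 21 of the 62 were higher in the motor neuron group than in ES (15.0%). On the same terms 17 were lower with Cdx2 and FGF than in the motor neuron group (3.68%). Against ES, 7 were higher in the Cdx2 and FGF group (31.4% of all tested probe sets were) and 2 lower (24.7%). The 7 were the 3 of Pcdh18, with 6.83 for 1422890_at, 6.73 for 1430427_a_at and 3.02 for 1422889_at, that of Pcdh8 with 4.07, and those of Pcdhb22 with 5.78, Pcdhb3 with 1.85 and Pcdhb19 with 1.44. The Pcdh8 difference was 3.08 without the third ES array and 5.15 without the first. Raised to a floor of 4, Pcdhb3 differed by 0.20 and Pcdhb19, under 4 on all 6 arrays, by 0.00. The 2 lower were the Pcdh19 probe sets 1437360_at, with -1.50 and groups that overlapped, and 1455145_at, with -1.11, and both calls were lost under several alternatives.

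**Figure D3:**
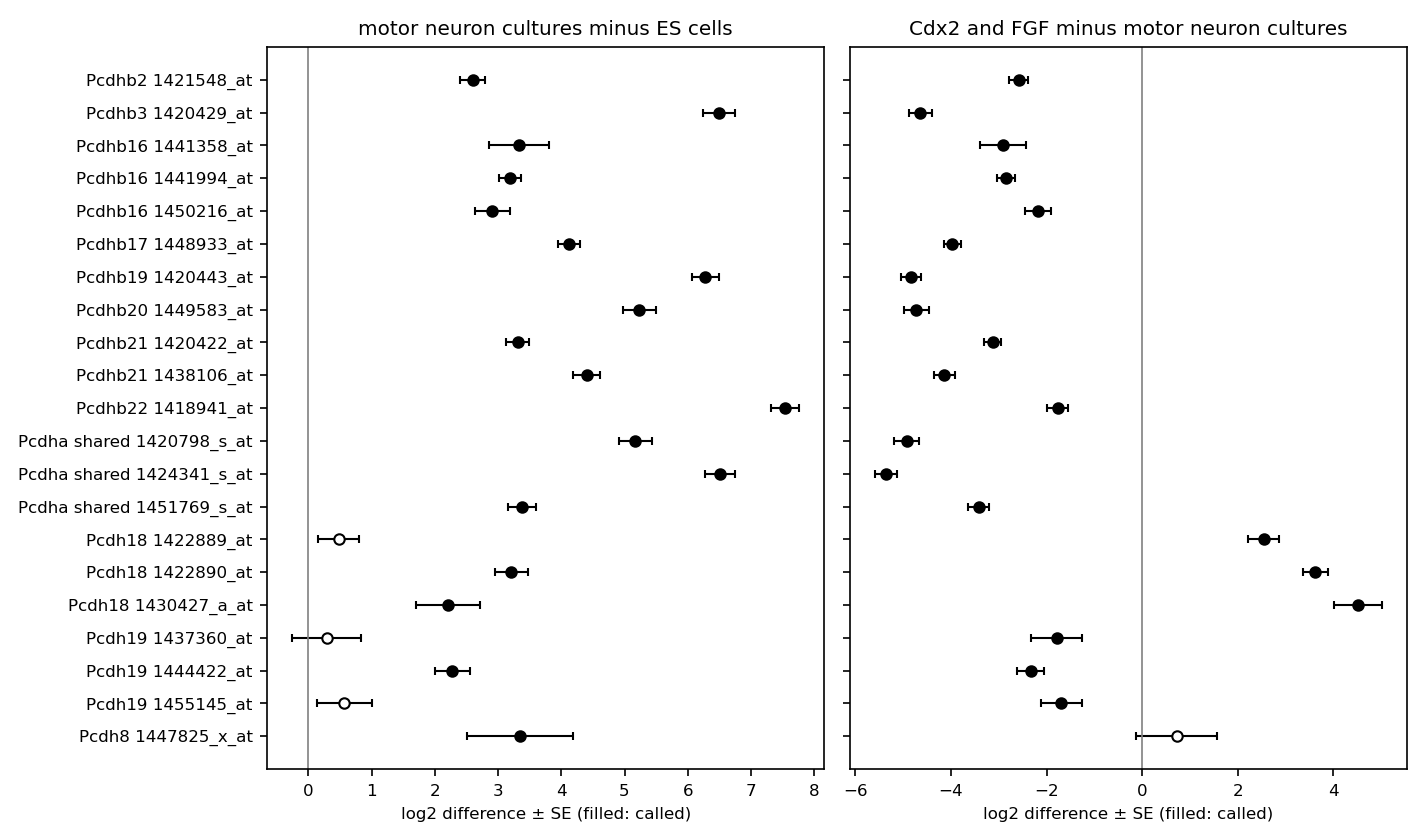
The log2 difference of each tested Pcdh probe set is plotted with its standard error for the motor neuron group minus ES and for the Cdx2 and FGF group minus the motor neuron group. All Pcdha and Pcdhb differences are above 0 in the first and below 0 in the second, and only the Pcdh18 probe sets lie far above 0 in the second. Filled points were called. The x axes of the panels span different ranges.

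Markers of the cell types in the cultures moved with these results. By 1 probe set per gene, 25.9% of all tested genes were higher in the motor neuron group than in ES. Between the day 5 groups, 11.1% were higher and 8.55% lower with Cdx2 and FGF. Of 10 pan-neuronal genes, 9 were higher in the motor neuron group than in ES (median difference 4.82) and 9 were lower with Cdx2 and FGF (median -4.11), where Syt1, a synaptic vesicle protein, was under 4. Their mean level was 11.52 to 12.32 in the motor neuron group, 7.91 to 8.25 under Cdx2 and FGF and 6.29 to 7.22 in ES. Of 8 motor neuron markers 6 were tested, and 5 were lower with Cdx2 and FGF, with a mean level over the 8 of 8.82 to 9.52 in the motor neuron group and 6.39 to 6.47 with Cdx2 and FGF. Isl2 was under 4 with Cdx2 and FGF. In RNA from whole cultures, fewer neurons and less protocadherin RNA per neuron cannot be told apart.

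Other marker lists differed alongside the higher Pcdh18 signal. Of all tested genes, 11.1% were higher with Cdx2 and FGF than in the motor neuron group and 8.55% were lower. The mean level of the presomitic and somitic mesoderm list, measured for 14 of 15 genes, was 4.34 to 4.43 in the motor neuron group and 5.65 to 5.71 with Cdx2 and FGF. Of its 7 tested genes, 3 were higher with Cdx2 and FGF, Meox1 by at least 123-fold, Foxc1 by at least 33.3-fold and Foxc2 by at least 26.7-fold, and 2 were lower, Lfng and Dll3. The presomitic genes Tbx6, Msgn1, Mesp1, Mesp2, Hes7 and Ripply2 were under 4 in every group. The mean level of the 12 fibroblast genes was 2.39 to 2.57 in the motor neuron group and 4.84 to 4.92 with Cdx2 and FGF. Of 7 tested, 4 were higher with Cdx2 and FGF, Twist2 by at least 44.5-fold, Col3a1 by at least 15.5-fold, Pdgfrb by at least 11.7-fold and Col1a1 by at least 8.6-fold, and 0 were lower, also at an unadjusted limma p under 0.05. Dcn, Lum, Postn, Thy1, Prrx1 and S100a4 were under 4 there. The part of these cells in the Pcdh18 signal was not tested. Glial markers, measured for 7 of 8 genes, had mean levels of 3.87 to 4.37 in ES, 3.52 to 3.84 in the motor neuron group and 3.98 to 4.06 with Cdx2 and FGF. Of 3 tested, Mbp was called higher in the motor neuron group than in ES, by 3.51. Slc1a3 and Aldh1l1 were called lower there, by -3.63 and -3.33. Slc1a3 alone was called between the day 5 groups, higher by 2.62 with Cdx2 and FGF. All 8 endothelial markers were under 4 on every day 5 array, and in ES Cdh5, Kdr, Tie1, Emcn and Cldn5 were under 4 and the mean level was 4.19 to 4.26. The 3 tested, Tek, Pecam1 and Flt1, averaged 9.38, 6.90 and 6.69 in ES. All 3 were called lower in the motor neuron group than in ES, where 30.7% of all tested genes were.

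**Figure D4:**
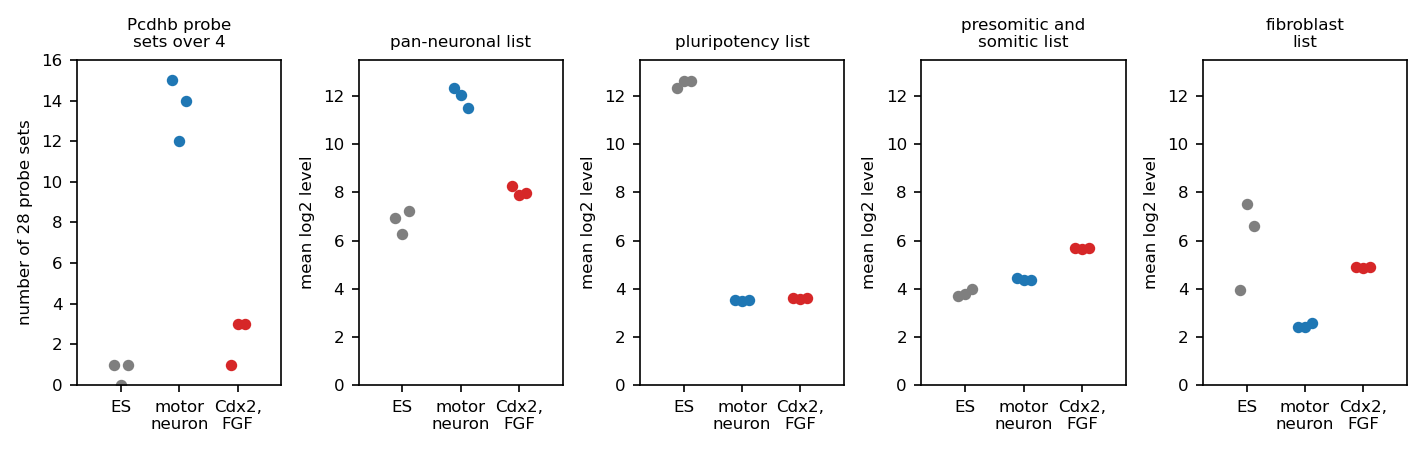
The number of the 28 Pcdhb probe sets over 4 and the mean log2 level of the pan-neuronal, pluripotency, presomitic and somitic, and fibroblast lists are plotted, 1 point per array, by group. The Pcdhb counts and the pan-neuronal levels are highest in the motor neuron group, the mesoderm list is highest with Cdx2 and FGF, and the fibroblast list spreads from 3.95 to 7.50 over the ES arrays.

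Genes that act on or with protocadherins were read from lists by role, 1 probe set per gene, against a background of 25.9% of 10911 genes higher and 30.7% lower in the motor neuron group than in ES, and 11.1% higher and 8.55% lower with Cdx2 and FGF. The median over all these genes was -0.08 in the first comparison and 0.04 in the second. Of 14 regulators of the clustered promoters, 1 was higher and 7 were lower in the motor neuron group than in ES, with a median of -1.01, and 12 were lower at an unadjusted limma p under 0.05. Rest, a repressor of neuronal genes outside neurons that also binds this locus, averaged 14.42 in ES, 10.09 in the motor neuron group and 11.96 with Cdx2 and FGF. It was 20.2-fold lower in the motor neuron group than in ES (limma adjusted p = 6.07e-09). With Cdx2 and FGF it was 3.66-fold higher than in the motor neuron group (limma adjusted p = 5.85e-06). Dnmt3b, a DNA methyltransferase, was 27.4-fold lower in the motor neuron group than in ES. Ctcf was 1.79-fold lower in the motor neuron group than in ES, a difference of -0.84 (limma adjusted p = 7.11e-05) that missed the call on size alone, and its difference with Cdx2 and FGF was -0.03 (limma adjusted p = 0.904). The cohesin subunit Rad21 was called in neither comparison, with -0.19 and -0.07. Other cohesin-related genes were called between the motor neuron group and ES. Stag2 and Wapl were lower there, with -1.38 and -2.06, and Nipbl was higher, with 1.11. Smc1a, Smc3 and Stag1 missed that call on size alone, with -0.65, -0.67 and -0.53. Rest was the only regulator called with Cdx2 and FGF. In this comparison 0 were lower, also at an unadjusted limma p under 0.05, and 8 were higher at that unadjusted p, with a median of 0.39.

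Downstream partners moved in both directions. Of 8 WAVE complex genes, the actin regulators that protocadherin tails recruit, 2 were higher and 3 lower in the motor neuron group than in ES (median -0.48), with Wasf3 at least 30.2-fold and Cyfip2 29.0-fold higher. With Cdx2 and FGF 1 was higher, Wasf2 by 2.02-fold, and 0 were lower, also at an unadjusted limma p under 0.05 (median -0.04). Of 10 other cytoplasmic partners, 2 were higher and 2 lower in the motor neuron group than in ES (median 0.21). With Cdx2 and FGF 0 were higher, with 1 at an unadjusted limma p under 0.05, and 1 was lower (median -0.07). The last was Dab1, a reelin pathway adaptor that binds the Pcdh18 tail, which was 3.99-fold higher in the motor neuron group than in ES and 15.9-fold lower with Cdx2 and FGF. Ptk2b, a kinase inhibited by clustered protocadherins, was at least 7.23-fold lower in the motor neuron group than in ES. Of 6 membrane protease genes, whose products cut protocadherins at the cell surface and within the membrane, 3 were higher and 1 lower (median 0.98). Aph1b, a gamma-secretase subunit, was at least 8.59-fold higher in the motor neuron group than in ES. With Cdx2 and FGF it was 5.71-fold lower than in the motor neuron group, the only member called there (median -0.25).

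Other adhesion genes are given beside them. Of 6 tested classical cadherins, 3 were higher and 1 lower in the motor neuron group than in ES (median 2.13). Cdh1, the epithelial cadherin, was at least 548-fold lower and Cdh2, the neural one, was 4.53-fold higher. With Cdx2 and FGF, Cdh6 was 5.58-fold higher and was the only classical cadherin called (median -0.53). Of 6 catenins, 2 were higher and 2 lower (median -0.50). Jup was 30-fold lower and Ctnnd1 2.01-fold lower in the motor neuron group than in ES. The neural catenin Ctnna2 was at least 5.99-fold higher in the motor neuron group than in ES and than with Cdx2 and FGF. Ctnnd2, also neural, was 7.88-fold higher in the motor neuron group than in ES and 8.78-fold higher than with Cdx2 and FGF. Between the day 5 groups Ctnna2 and Ctnnd2 were the only catenins called (median -0.40). Of 13 atypical cadherins, 7 were higher and 3 lower in the motor neuron group than in ES (median 1.27). With Cdx2 and FGF 3 were higher and 4 lower than in the motor neuron group (median -0.14). Celsr3, a neuronal planar polarity cadherin, was 8.21-fold lower and Clstn2, a synaptic calsyntenin, 3.0-fold lower with Cdx2 and FGF, and Dsc2, a desmosomal cadherin, was at least 15.9-fold higher.

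**Figure D5:**
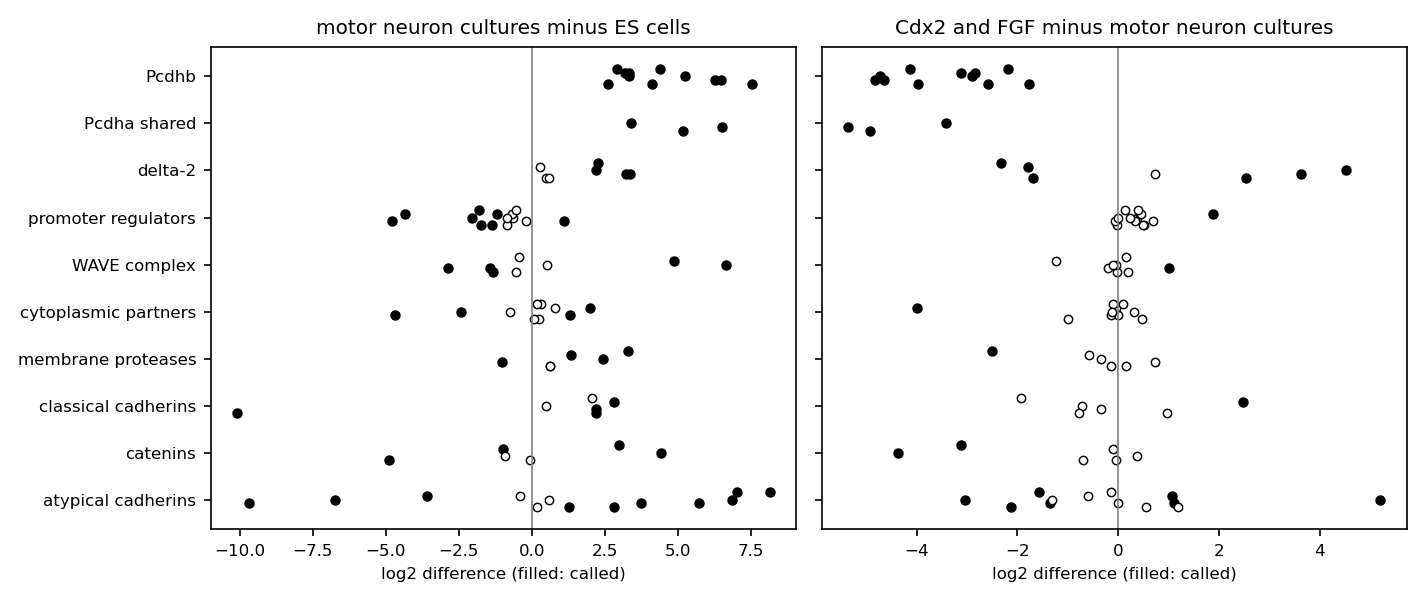
The log2 difference of each tested gene of the partner lists is plotted for the motor neuron group minus ES and for the Cdx2 and FGF group minus the motor neuron group, 1 point per gene, below the tested Pcdhb, Pcdha and delta-2 probe sets, with filled points for calls. The medians of the partner lists lie between -1.01 and 2.13 in the first comparison and between -0.53 and 0.39 in the second.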

How the data were processed

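RNA was amplified with the NuGEN Ovation kit and read on 9 Affymetrix mouse arrays, per the labels' protocols. The deposited values were made by the authors with GCRMA, and limma is also named, per the submitters' processing notes. The log2 scale was taken from the values and is not stated. GCRMA holds dim probe sets near a common floor, so low values have no order. No genome build of the files is given in the sources used here, and GRCm38.p6 RefSeq tables served for gene order and promoters.

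From the deposited log2 values, limma 3.58.1 in R 4.3.3 was fitted to 3 group means over all 9 arrays, per probe set, with an intensity trend. The 64 Affymetrix controls were left out, and 34958 of 45101 probe sets had 1 gene symbol. The number of arrays, 3 a group, limits the precision. Every gene with a tested probe set is named. Up to 8 rising and 8 falling probe sets a comparison are ranked by difference after raising values to 4. Members of each list are named as examples, not strictly by that rank. Partner lists used the probe set with the highest mean per gene. The fit was checked on simulated data. The members, lists and tests were chosen with earlier results of these data known. Alternatives changed the normalization, centring, filter, floor, variance prior, array weights, arrays, probe sets and replicates.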

Additional observations from a re-analysis of the deposited data

How the results depend on the processing

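Over every called difference and alternative, 917 recomputed values kept the direction and the call, 43 lost the call and 0 reversed. Of the uncalled differences given in the text, those of Pcdh19 between the motor neuron group and ES turned to -0.17 (1437360_at) and -0.04 (1455145_at) with values raised to 4, and the former ranged from -0.45 to 0.68 with 1 array left out, turning without the first ES array. Counting the several-symbol probe sets, 15 of 18 calls between the motor neuron group and ES, 16 of 20 between the day 5 groups and 5 of 10 between the Cdx2 and FGF group and ES held in every alternative run. The 2 probe sets lower with Cdx2 and FGF than in ES, both of Pcdh19, became 1 after repeated quantile normalization or with 1 probe set per gene, and 0 with no filter, a filter at 6, values raised to 4, array weights or only the 6 arrays compared. Leaving out 1 array gave 0 to 2. Between the day 5 groups, the 14 lower became 7 with a filter at 6, 9 with 1 probe set per gene and 10 with values raised to 4. With 1 array left out they were 12 to 14, and the 3 higher became 1 with 1 probe set per gene. The 15 higher in the motor neuron group than in ES became 10 with a filter at 6, 9 with 1 probe set per gene and 12 with values raised to 4. With 1 array left out they were 15 to 16. The 7 higher with Cdx2 and FGF than in ES became 5 with values raised to 4 or with 1 probe set per gene. A filter at 6 and 1 probe set per gene leave fewer probe sets to count. Other causes were not tested. Centring each array on its median moved the median difference of all tested probe sets from 0.10 to -0.01 for the motor neuron group minus ES, from 0.04 to -0.06 between the day 5 groups, and from 0.14 to -0.07 for the Cdx2 and FGF group minus ES. Signals near the floor limit what can be said of the 44 untested probe sets.

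Deviations of same-numbered arrays correlated at -0.0281 to 0.106 and those of different-numbered arrays at -0.14 to 0.0647. Between the day 5 groups the same-numbered pairs were at 0.0348, 0.106 and 0.0698. No pairing of replicate numbers is stated, and correlations this weak cannot show whether there was one. With the replicate number as a block, the counts were those without it, 15 higher and 0 lower, 3 higher and 14 lower, and 7 higher and 2 lower in the 3 comparisons.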

Other observations

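Genes beside the clustered protocadherins were read as a description of the surrounding locus, by gene order in GRCm38.p6. Of 16 listed genes, 12 were tested. In the motor neuron group 3 were higher and 5 lower than in ES, against 25.9% and 30.7% of all tested genes. With Cdx2 and FGF, 1 was higher than in the motor neuron group and 0 were lower, against 11.1% and 8.55%. Arap3, a GTPase-activating protein, was the 1 that was higher, by 5.95 (limma adjusted p = 8.43e-05), with means of 4.75 in ES, 2.91 in the motor neuron group and 8.86 with Cdx2 and FGF. Taf7, a subunit of the general transcription factor TFIID that lies between the clusters, averaged 10.13, 8.56 and 8.01, with a difference between the day 5 groups of -0.55 that was not called (limma adjusted p = 0.155). Diaph1, a formin that nucleates actin filaments, averaged 11.77, 9.21 and 9.46 just after the clusters, and Hdac3, a histone deacetylase, averaged 8.40, 10.58 and 10.34. Zmat2, just before them, averaged 12.20, 12.95 and 12.43, and its difference of -0.51 between the day 5 groups was not called (limma adjusted p = 0.0579).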
